A study of Mus musculus with 11 samples.

Results

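The retinoid X receptors and the nuclear receptors that work with them were followed across 3 populations of mouse alveolar macrophages, the resident macrophages of the lung air spaces. The set was chosen by name and holds 10 genes of the 12932 in the expression table, and all 10 had a row. They are the 2 RXR genes Rxra and Rxrb, the PPAR genes Pparg and Ppard, the liver X receptors Nr1h3 (LXRα) and Nr1h2 (LXRβ), the retinoic acid receptor Rara, the glucocorticoid receptor Nr3c1, the clock repressor Nr1d2 (REV-ERBβ) and the orphan receptor Nr4a1 (NUR77). Bulk RNA-seq was made from 11 libraries of sorted cells. The mAM_WT group (n = 4) holds mature alveolar macrophages, CD11b-/SiglecF+, from CD11cCre- Rxrab fl/fl mice. The mAM_KO group (n = 4) holds the same population from CD11cCre+ Rxrab fl/fl mice. The Imm_KO group (n = 3) holds immature alveolar macrophages (ImmAMs), CD11b+/SiglecF+, again from CD11cCre+ Rxrab fl/fl mice. All groups therefore carry floxed Rxra and Rxrb alleles on a C57BL/6J background, and the controls were littermates without Cre. The study used mice of both sexes at 9 wk, and the labels give no sex per library. Cre was driven by Cd11c, a gene that other lung myeloid cells, such as dendritic cells, also use. The table holds no ImmAMs from control mice, so the ImmAM contrasts with mAM_WT differ in both maturity and genotype. The main comparisons used mAM_KO replicates 1–3, the number of libraries the study plotted, and mAM_KO replicate 4 was added as an alternative. The legends of the study give no replicate numbers, so leaving out replicate 4 was a choice made here.

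Nuclear receptors are transcription factors that bind DNA directly and change activity when a small lipophilic ligand occupies their pocket. RXRs pair with PPARs, which sense fatty acids, with LXRs, which sense oxysterols, and with RARs, which sense retinoic acid, so the same RXR pool serves several programmes. PPARγ is a defining factor of alveolar macrophages, which clear surfactant lipid. NUR77 can pair with RXR or act alone, whereas the glucocorticoid receptor and REV-ERBβ act mostly without it.

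Read totals over the table were 16659960 to 37873532 per library, and the fewest reads behind any member in any library were 81, for Nr1h3 in Imm_KO replicate 2. Libraries differed in how they represented GC-rich transcripts. Relative to its group mean, log2 level moved with GC content by -0.14 in mAM_WT replicate 1 to 0.23 in mAM_KO replicate 4 for each 10 points of GC. The mean difference of mAM_KO replicates 1–3 from mAM_WT moved by -0.19 for each 10 points, and that of Imm_KO by -0.07. Members span 41.8% GC (Nr1d2) to 61.4% GC (Rxrb), so GC-adjusted values, an alternative chosen after seeing the data, are given where they change a call. All 14 alveolar macrophage markers were present, and their sum ran from 23344 to 29609.6 CPM over mAM_WT libraries, from 27956 to 33740.1 CPM over mAM_KO and from 25792 to 27599 CPM over Imm_KO. Single alveolar macrophage markers were less even than their sum: in Imm_KO against mAM_WT 2 were higher and 11 lower (median log2 fold change -3.08), and in mAM_KO against mAM_WT 1 was higher and 3 lower (median -0.20). The 8 monocyte markers present of 12 summed to 1494 to 2169, 1436 to 1749 and 6882 to 7533 CPM, and the 10 interstitial macrophage markers present of 12 to 71.4 to 152, 67.6 to 160.2 and 422 to 459 CPM. These mAM_KO ranges are for replicates 1–3; with replicate 4 the monocyte sum reached 2040.4 CPM and the interstitial sum 261 CPM. In Imm_KO against mAM_WT, 6 of these monocyte and 8 of these interstitial markers were called higher. No row matched any of the 9 T and NK cell or the 9 endothelium and fibroblast markers, and dendritic cell, neutrophil, eosinophil, B cell and epithelial lists summed to at most 63.0 CPM in any library fitted. The neutrophil sum was 53.1 to 63.0 CPM in Imm_KO against 31.5 to 39.8 CPM in mAM_WT. Called higher in that contrast were 5 of 6 neutrophil, 3 of 4 dendritic cell, 1 of 2 eosinophil, 1 of 3 B cell and 1 of 4 epithelial markers tested. Called lower was 1 epithelial marker, beside 22.8% of all genes higher and 25.3% lower. In bulk samples, fewer cells of a type and less RNA per cell cannot be told apart.

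The floxed genes are given first. Rxra (ENSMUSG00000015846, GRCm38 chr2:27676440-27762957, plus strand) stood at 310.2, 352, 336 and 379.5 normalised CPM (reads scaled to a common library size, after TMM) in mAM_WT replicates 1–4. In mAM_KO replicates 1–3 it was 347, 334 and 351 CPM, with 419 CPM in replicate 4. In Imm_KO replicates 2–4 it was 286, 305 and 283 CPM. The control and knockout mature cells thus overlapped, and each ImmAM library lay below every mature library. Rxrb (ENSMUSG00000039656, chr17:34031812-34038399, plus strand) was 54.04, 61.5, 51.4 and 72.1 CPM in mAM_WT, 46.3, 52.8 and 39.3 CPM in mAM_KO and 33.4, 35.2 and 31.9 CPM in Imm_KO, and here too the ImmAM libraries were the lowest.

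These are sums of reads over the whole gene. Removal of a floxed exon leaves the other exons to be transcribed and counted, so the gene totals neither show nor contradict deletion. The study's own primers show where an exon-level assay reads. Its Rxra genotyping primers P1 and P2 and its qPCR primers for Rxra and Rxrb are printed 5′ to 3′, and the capitals mark the 8 bases over which P2 and the forward Rxra qPCR primer lie on the same stretch of the gene on opposite strands.

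P1: accaagcacatctgtgctatct
P2: CAACTGTAtaccccatagtgtt
Rxra-F: TACAGTTGtgagggctgcaa
Rxra-R: ttccgctgtctcttgtcgat
Rxrb-F: atgtgaagccaccggtctta
Rxrb-R: gcttgaagaaacccttgcag

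On the GENCODE M21 transcripts, P1 matched exon 3 (chr2:27741164-27741185) and P2 exon 4 (chr2:27741767-27741788) of the 10-exon principal Rxra transcript, 625 bases from end to end on the reference. Both Rxra qPCR primers matched exon 4 (chr2:27741781-27741800 and chr2:27741868-27741887), giving a 107-base product. The Rxrb qPCR primers matched exon 3 (chr17:34033604-34033623) and exon 4 (chr17:34034053-34034072), giving a 159-base product on the spliced transcript. Exon-level reads were not used here.

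**Figure D1:**
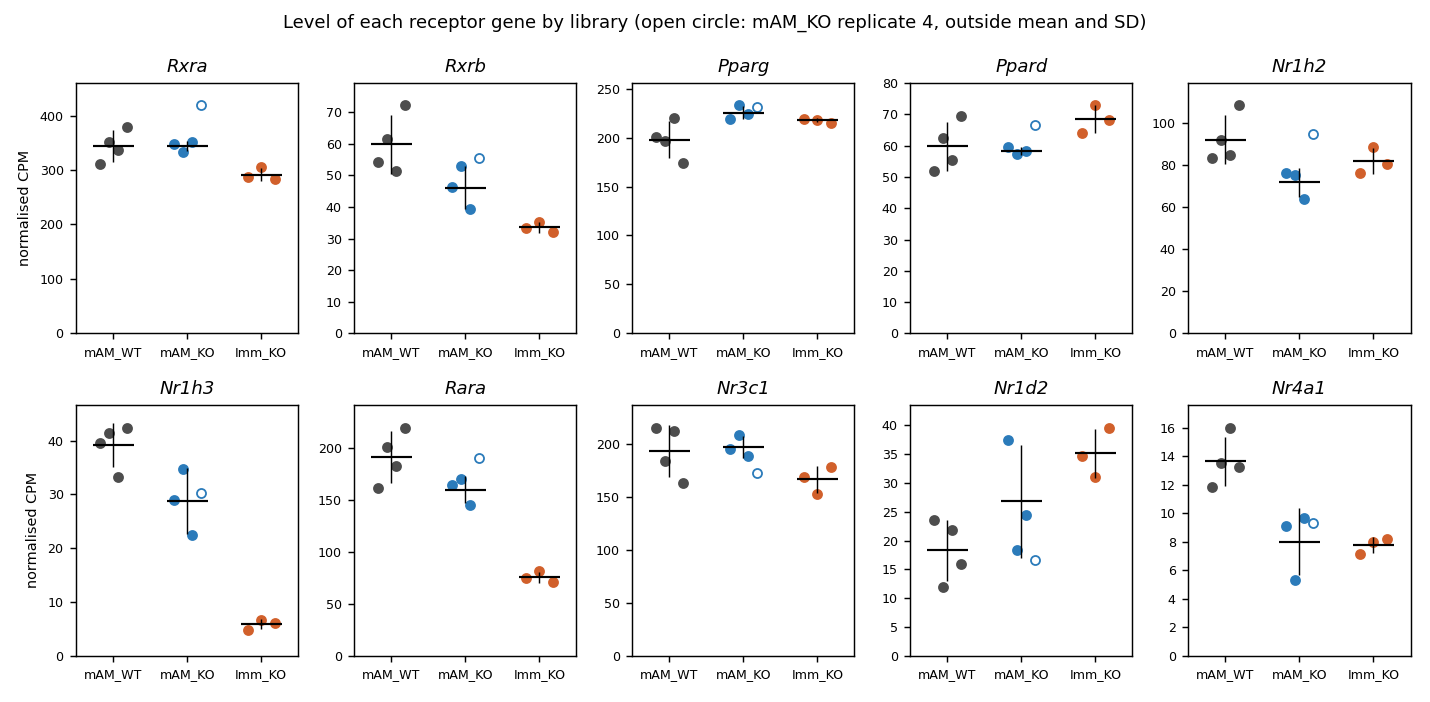
Normalised CPM (y axis, from 0) of the 10 receptor genes in each library by group (x axis). Filled circles are the libraries fitted, horizontal bars their mean and vertical bars the SD, and the open circle is mAM_KO replicate 4. Nr1h3 and Rara in Imm_KO lie far below both mature groups, at means of 5.89 and 75.4 CPM.

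Levels of different genes were compared per kb of exon, the union of all annotated exons. In mAM_WT, Pparg (66.98 ± 6.34 CPM per kb, SD, n = 4) and Rxra (63.1 ± 5.304) led the set and overlapped each other. Rara followed at 43.7 ± 5.68 CPM per kb, apart from its neighbours on both sides. Nr1h2 (27.4 ± 3.43) and Nr3c1 (25.2 ± 3.21) overlapped, as did Nr1h3 (15.6 ± 1.63) and Rxrb (15.04 ± 2.34). Ppard stood alone at 7.96 ± 1.05, and Nr4a1 (3.89 ± 0.496) and Nr1d2 (3.38 ± 0.987) overlapped at the bottom. These overlaps depended on the length used. With the longest transcript as the length, Rara overlapped Rxra and Nr1h2 in mAM_WT, and Ppard overlapped Nr1h3. Pparg and Rxra then did not overlap, nor did Nr1h2 and Nr3c1.

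In mAM_KO the order at the top was the same, with Pparg at 76.4 ± 2.37 CPM per kb (SD, n = 3), Rxra at 62.97 ± 1.67 and Rara at 36.6 ± 3.01, and here Pparg and Rxra did not overlap, although with replicate 4 (Rxra 76.7 CPM per kb) they did. The ImmAM order was different in the middle. Pparg (73.7 ± 0.709 CPM per kb, SD, n = 3) and Rxra (53.4 ± 2.23) still led, but Rara dropped from the third to the fifth place at 17.3 ± 1.22, under Nr1h2 (24.4 ± 1.85) and Nr3c1 (21.7 ± 1.67). Nr1h3 dropped from the sixth to the ninth place at 2.34 ± 0.375 CPM per kb, where it overlapped Nr4a1 (2.21 ± 0.16). With the longest transcript as the length in place of the exon union, 8 of the 30 places moved: Nr1h3 then stood at place 7 in mAM_WT (behind Rxrb), 8 in mAM_KO (behind Ppard) and 10 in Imm_KO (behind Nr4a1), and Nr1h2 and Nr3c1 changed places in mAM_KO. The first and the second place stayed with Pparg and Rxra.

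**Figure D2:**
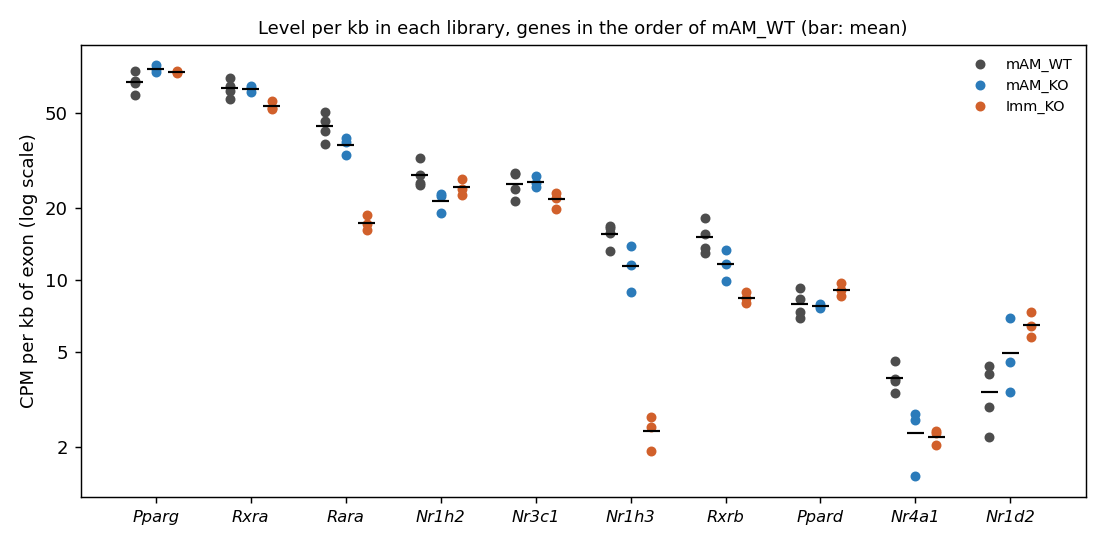
CPM per kb of exon (y axis, log scale) of each receptor gene (x axis, ordered by the mAM_WT mean) in each library fitted, with bars at group means. Pparg and Rxra are the highest in all 3 groups, and Nr1h3 in Imm_KO falls to 2.34 CPM per kb.

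Within families, some pairs kept their make-up and others did not. Rxra made up 80.8% ± 1.39 (SD, n = 4) of the RXR level per kb in mAM_WT, 84.4% ± 2.28 (n = 3) in mAM_KO and 86.4% ± 0.196 (n = 3) in Imm_KO. The summed RXR level, from reads over the whole genes that do not show deletion, was 78.1 ± 7.44, 74.6 ± 0.568 and 61.8 ± 2.63 CPM per kb. Pparg made up 89.3% ± 2.12, 90.8% ± 0.437 and 89.01% ± 0.67 of the PPAR pair. The LXR pair shifted in ImmAMs. Nr1h3 held 36.2% ± 2.25 of it in mAM_WT and 34.5% ± 3.16 in mAM_KO but 8.74% ± 0.776 in Imm_KO, while the summed LXR level was 43 ± 4.66, 32.8 ± 4.35 and 26.7 ± 2.21 CPM per kb. These shares are described without a test.

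**Figure D3:**
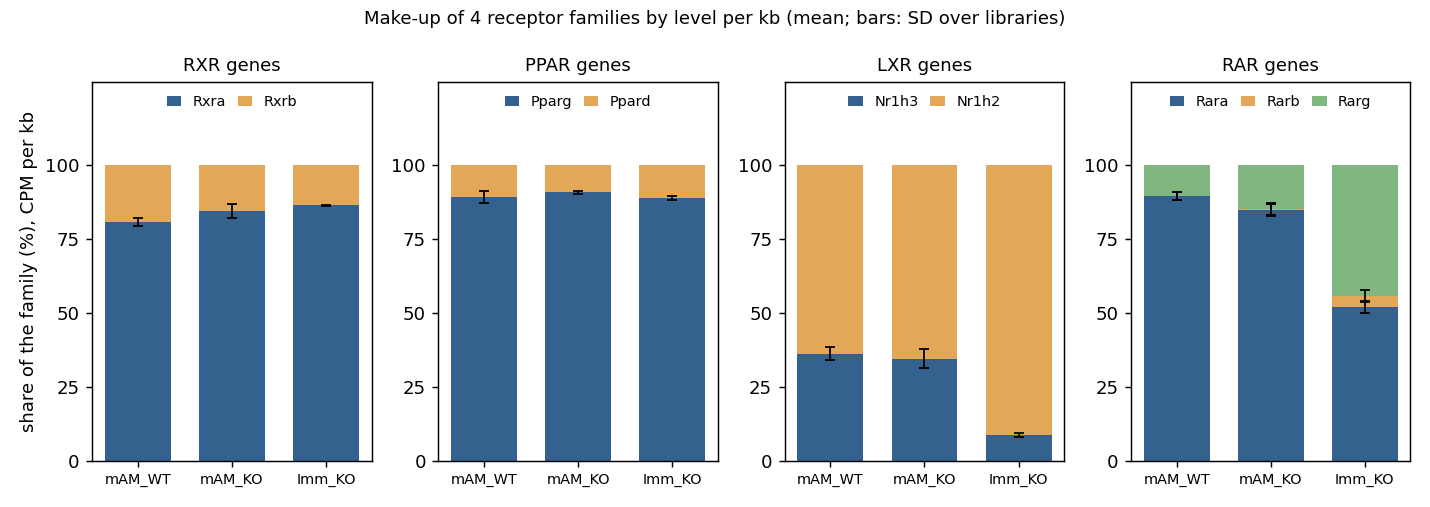
Share of each gene in the summed CPM per kb of its receptor family (y axis, %), as the mean over libraries with SD, for the 3 groups (x axis). Nr1h3 gives way to Nr1h2 in Imm_KO (91.3% of the LXR pair), and Rara to Rarg (44.2% of the RAR genes).

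Mature RXR-deficient macrophages were compared with mature control macrophages, sorted by the same surface markers. Of the markers tested, 2 of 8 monocyte, 1 of 10 interstitial macrophage and 1 of 4 dendritic cell markers were called higher in mAM_KO. None of these lists had a marker called lower, and 2.25% of all genes were called higher. Their part in the differences of members was not tested. Nr4a1 fell, and no other member passed the test. Nr4a1 (ENSMUSG00000023034, chr15:101254269-101274795, plus strand), an immediate early gene as well as a receptor, stood at 11.8, 13.5, 16.01 and 13.2 CPM in mAM_WT and 9.07, 5.29 and 9.67 CPM in mAM_KO, with 9.32 CPM in replicate 4, and every knockout library lay below every control library. The log2 fold change was -0.81 ± 0.20 SE, an adjusted p of 0.0396 by limma. This call, 1 of 10 members (10%), compares with 4.84% of the 12889 genes tested, of which 2.25% were higher and 2.59% lower in mAM_KO. At an unadjusted p under 0.05 there were 7 members, 2 higher and 5 lower, against 23.6% of all genes (10.8% higher and 12.8% lower). The Nr4a1 call was not kept in most alternatives: with all 11 libraries the adjusted p was 0.0526, after GC adjustment 0.0957, and leaving out each of the 10 libraries in turn gave 0.0359 (without mAM_WT replicate 1) to 0.0963 (without mAM_WT replicate 2), with the call kept in 1 case. Groups of libraries did not overlap for 2 members, Nr4a1 and Nr1h2, against 20.1% of all genes tested.

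The LXR genes and Rxrb lay lower in mAM_KO without passing the test. Nr1h3 (ENSMUSG00000002108, chr2:91184061-91202834, minus strand) was 39.5, 41.4, 33.3 and 42.4 CPM in mAM_WT and 28.97, 34.7 and 22.4 CPM in mAM_KO (log2 fold change -0.46 ± 0.16 SE, adjusted p = 0.10). Nr1h2 (ENSMUSG00000060601, chr7:44549616-44553951, minus strand) was 83.2, 91.8, 84.7 and 108 CPM and 76.2, 75.3 and 63.7 CPM (-0.36 ± 0.10 SE, adjusted p = 0.0641), with 94.96 CPM in mAM_KO replicate 4, which lies inside the control range. The Rxrb difference was -0.37 ± 0.12 SE (adjusted p = 0.0972). These 3 genes and Nr4a1 passed the threshold with DESeq2 on the recovered reads, and Nr4a1 alone did with edgeR. Of the 12889 genes tested in this contrast, DESeq2 called 1352, edgeR 566 and limma 624. All 4 have a GC content above 55%, and after GC adjustment their log2 fold changes were -0.31 for Nr1h3, -0.13 for Nr1h2, -0.13 for Rxrb and -0.65 for Nr4a1.

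No difference of the remaining members passed. Rxra differed by 0.00 on the log2 scale (95% interval -0.15 to 0.15), which became 0.16 after GC adjustment (adjusted p = 0.0754), and Ppard by -0.03 (-0.24 to 0.18). Nr3c1 differed by 0.04 (-0.17 to 0.24). Pparg (ENSMUSG00000000440, chr6:115360951-115490399, plus strand) was 201, 196, 219.7 and 174 CPM in mAM_WT and 219, 233 and 224 CPM in mAM_KO, a log2 difference of 0.19 (0.03 to 0.35, adjusted p = 0.13). Rara (ENSMUSG00000037992, chr11:98927818-98974942, plus strand) differed by -0.25 (-0.47 to -0.04, adjusted p = 0.15), which became -0.05 after GC adjustment. Nr1d2 (ENSMUSG00000021775, chr14:18204054-18239127, minus strand), a gene with a daily rhythm in most tissues, varied widely within groups, from 11.96 to 23.5 CPM in mAM_WT and from 18.4 to 37.6 CPM in mAM_KO (log2 difference 0.54 ± 0.25 SE, adjusted p = 0.21). The median log2 fold change was -0.14 over the 10 members and -0.00188 over all genes tested.

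**Figure D4:**
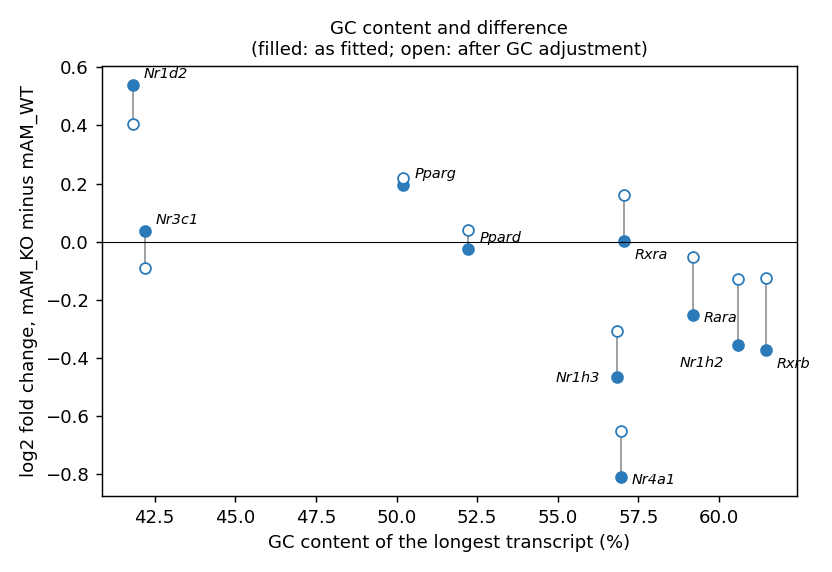
GC content of the longest transcript (x axis, %) against the log2 fold change of mAM_KO over mAM_WT (y axis) for the 10 receptor genes, as fitted (filled) and after GC adjustment (open), joined by a line. The 6 genes above 55% GC all move upward on adjustment, Rxrb from -0.37 to -0.13.

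RXR-deficient ImmAMs were compared with control mature cells. In this contrast 6 of 10 members (60%) were called, against 48.1% of all genes tested, a share not far from the background. Lower in ImmAMs were 5 members, against 25.3% of all genes, and higher was 1, against 22.8%. Groups of libraries did not overlap for 6 members, against 51.3% of all genes. The monocyte and interstitial macrophage markers given above moved in the same contrast, and so did those of alveolar macrophages; their part in the differences of members and target lists was not tested.

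Both LXRs drive cholesterol efflux in macrophages. Of them, Nr1h3 fell by 2.74 on the log2 scale, more than any other member. It was 4.86, 6.703 and 6.12 CPM in Imm_KO against 39.5, 41.4, 33.3 and 42.4 CPM in mAM_WT, 6.67-fold lower (log2 fold change -2.74 ± 0.16 SE, adjusted p = 2.003e-08). Its close relative Nr1h2 did not pass the test. At 76.2, 88.4 and 80.6 CPM its libraries overlapped the control ones, and the difference was -0.17 on the log2 scale (95% interval -0.39 to 0.06, adjusted p = 0.20). Rara, the main retinoic acid receptor of mature cells, fell 2.52-fold, from 162, 201, 182 and 219 CPM to 74.5, 81.1 and 70.6 CPM (-1.33 ± 0.10 SE, adjusted p = 2.21e-07).

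Both RXR genes were lower in ImmAMs than in mAM_WT, but by different amounts. Rxrb fell 1.77-fold (-0.82 ± 0.12 SE, adjusted p = 1.26e-04), with no overlap between the groups. Rxra fell 1.18-fold (-0.24 ± 0.07 SE, adjusted p = 0.0141). The Rxra call was lost without Imm_KO replicate 2 (adjusted p = 0.0551) or replicate 4 (adjusted p = 0.0599). Nr4a1 was 7.12, 8.001 and 8.17 CPM, below all 4 control libraries (-0.81 ± 0.20 SE, adjusted p = 0.00466). Nr1d2 was the member that rose, to 34.7, 31.1 and 39.6 CPM (0.98 ± 0.25 SE, adjusted p = 0.00543).

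The PPAR genes and Nr3c1 did not pass the test. Pparg was 219, 218 and 215 CPM in Imm_KO, inside the control range (log2 difference 0.14, 95% interval -0.02 to 0.30, adjusted p = 0.13). Ppard (ENSMUSG00000002250, chr17:28232700-28301474, plus strand), the broadly expressed PPAR, was 63.99, 72.9 and 68.3 CPM (0.20, -0.01 to 0.41, adjusted p = 0.10). Nr3c1 was 169, 152 and 178 CPM (-0.21, -0.42 to -0.00253, adjusted p = 0.0883). After GC adjustment these 3 genes passed as well, at log2 fold changes of 0.21 (adjusted p = 0.0295), 0.29 (adjusted p = 0.00573) and -0.23 (adjusted p = 0.00564), which made 9 members called. Under that adjustment 6670 of the 12889 genes tested were called in this contrast.

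**Figure D5:**
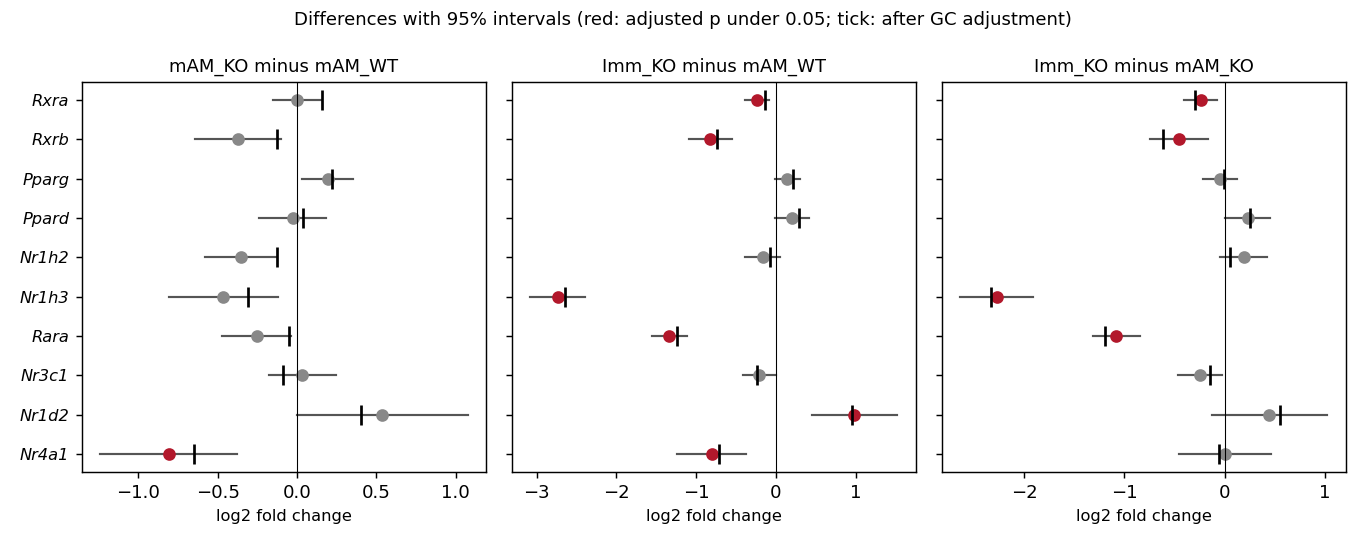
Log2 fold changes (x axis) of the 10 receptor genes (rows) in the 3 comparisons, with 95% intervals from limma. Red circles passed an adjusted p of 0.05, and ticks give the value after GC adjustment; Nr1h3 and Rara have the largest differences in both ImmAM panels.

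Imm_KO and mAM_KO shared the CD11cCre+ genotype, so this contrast sets ImmAMs against mature cells within it. In this contrast 4 of 10 members (40%) were called, all lower in ImmAMs, against 37.9% of all genes tested, 20.2% lower and 17.7% higher. They were Nr1h3, Rara, Rxrb and Rxra. Nr1h3 was 4.84-fold lower (-2.27 ± 0.17 SE, adjusted p = 3.90e-07) and Rara 2.12-fold lower (-1.08 ± 0.11 SE, adjusted p = 4.90e-06). Rxrb was 1.37-fold lower (-0.45 ± 0.13 SE, adjusted p = 0.0168), a call lost without mAM_KO replicate 2 (adjusted p = 0.0747) or Imm_KO replicate 4 (adjusted p = 0.0585). Rxra was 1.18-fold lower (-0.24 ± 0.08 SE, adjusted p = 0.0242), a call lost on leaving out mAM_KO replicate 1 or 3 or Imm_KO replicate 2 or 4, with adjusted p of 0.0649, 0.0661, 0.0776 and 0.0840.

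Among the others, Nr4a1 had 9.07, 5.29 and 9.67 CPM in mAM_KO and 7.12, 8.001 and 8.17 CPM in Imm_KO, and its interval of -0.46 to 0.46 on the log2 scale is wide. Pparg differed by -0.05 (-0.22 to 0.12), a narrow interval that spans 0. Ppard (0.23, adjusted p = 0.10) and Nr3c1 (-0.25, adjusted p = 0.0773) did not overlap between groups yet missed the threshold, and with mAM_KO replicate 4 (66.6 and 172 CPM) both overlapped. Nor was the threshold passed by Nr1h2 (0.19, adjusted p = 0.19) or Nr1d2 (0.45, adjusted p = 0.21), whose groups overlapped. Groups did not overlap for 6 members, against 51.2% of all genes. Both ImmAM contrasts use the same 3 Imm_KO libraries, and the 2 contrasts with mAM_WT share their controls. After GC adjustment Ppard passed, at 0.25 (adjusted p = 0.0238).

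A ratio of 2 genes within a library does not depend on how libraries are scaled. Per kb, the Rxra to Rxrb ratio was 4.23 ± 0.389 in mAM_WT (SD, n = 4), 5.52 ± 0.956 in mAM_KO (n = 3) and 6.33 ± 0.106 in Imm_KO (n = 3). From mAM_WT to Imm_KO it differed by 0.59 on the log2 scale (exact permutation p = 0.0286, adjusted p = 0.17), with no overlap, and this p is the smallest that 4 against 3 libraries allow. The Nr1h3 to Nr1h2 ratio was 0.57 ± 0.0557, 0.53 ± 0.0753 and 0.0958 ± 0.00927 per kb. From mAM_WT to Imm_KO it differed by -2.57 on the log2 scale (exact permutation p = 0.0286, adjusted p = 0.17), again with no overlap. Pparg to Rxra was 1.07 ± 0.169, 1.21 ± 0.0677 and 1.38 ± 0.0536, and the mAM_WT to Imm_KO difference was 0.38 on the log2 scale (exact permutation p = 0.0857, adjusted p = 0.17). Pparg to Ppard was 8.58 ± 1.75, 9.84 ± 0.513 and 8.12 ± 0.564, and the mAM_WT to Imm_KO difference was -0.06 on the log2 scale (exact permutation p = 0.86, adjusted p = 0.86). The 12 tests (4 ratios, 3 comparisons) gave no adjusted p under 0.17, and 3 against 3 libraries cannot give an exact p below 0.1.

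Of 39 other nuclear receptor genes, 15 had a row. The RAR family had another make-up in ImmAMs, a pattern picked out after its values were seen. Beside the fall of Rara, Rarg rose from 20.01, 24.5, 16.8 and 26.1 CPM in mAM_WT and 29.7, 23.9 and 28.2 CPM in mAM_KO to 56, 69.3 and 62.6 CPM in Imm_KO (log2 fold change from mAM_WT 1.54 ± 0.15 SE, adjusted p = 1.93e-06). Rarb, which retinoic acid itself induces in many cells, had 7 reads over the 4 mAM_WT libraries, 32 over mAM_KO replicates 1–3 and 385 over the 3 Imm_KO libraries. That is 6.41, 6.703 and 7.06 CPM in Imm_KO, 105-fold the pooled mAM_WT level and 13.3-fold the pooled mAM_KO level (limma adjusted p = 1.24e-05 and 0.00464; pooled reads, since the fitted fold of so few reads rests on the 0.5 added). Rarb exons overlap those of Top2b on the opposite strand over 34.1% of their length, so reads there are uncertain; Top2b was 192, 179, 215 and 164 CPM in mAM_WT and 153, 129 and 138 CPM in Imm_KO. By level per kb, Rara made up 89.5% ± 1.24 (SD, n = 4) of the 3 RAR genes in mAM_WT, 84.8% ± 2.17 (n = 3) in mAM_KO and 51.98% ± 2.11 (n = 3) in Imm_KO, and Rarg made up 10.46% ± 1.22, 14.9% ± 2.09 and 44.2% ± 2.05. The summed RAR level was 48.9 ± 6.47, 43.1 ± 2.71 and 33.2 ± 2.51 CPM per kb.

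RefSeq promoter windows (GRCm38.p6) matched 9 of the 10 members (17 windows; Nr3c1 had no entry), and 3 more windows matched Rarb and Rarg. Of these 20, the Rarb window held a direct repeat of 2 receptor core motifs, and the other 19 held none. The cores searched were AGGTCA, the variant GGGTCA, the variant AGTTCA and the variant GGTTCA on both strands, as pairs spaced by 1, 2, 4 or 5 bases. The 100 bases before its start (chr14:16575477-16575576, minus strand) are shown with cores in capitals; the second and the third core are the repeat spaced by 5 bases, at -53 to -37. The matching stretch of the Rara window at chr11:98939461-98939760 (plus strand; 100 bases, chr11:98939611-98939710) is set beside it because Rara moved the opposite way. Of the 4 Rara windows this one holds the most cores, 4 over its whole length, of which 1 lies in the stretch shown. The whole Rarb window holds 3.

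Rarb: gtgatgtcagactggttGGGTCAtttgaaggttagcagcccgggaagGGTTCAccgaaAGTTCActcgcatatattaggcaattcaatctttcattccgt
Rara: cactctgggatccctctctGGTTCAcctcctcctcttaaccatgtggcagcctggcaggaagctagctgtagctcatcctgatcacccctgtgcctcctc

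A pair spaced by 5 bases is found in 0.0974% of the 32851 RefSeq promoter windows (250 bases before to 50 after each start), while a single core is found in 43.7%. The match is a description of the letters and no measure of binding.

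Other receptors moved too, in both directions. In Imm_KO against mAM_WT, 7 of the 15 rose, 1 fell and 7 were not called, against 22.8% of all genes higher and 25.3% lower. Nr2c2, the orphan receptor TR4 that binds direct repeats, rose from 52.5, 50.97, 49.1 and 53.01 CPM to 72.3, 75.4 and 77.6 CPM (log2 fold change 0.55 ± 0.08 SE, adjusted p = 7.60e-05). The mineralocorticoid receptor Nr3c2 rose from a mean of 6.06 to 9.98 CPM (log2 fold change 0.74, adjusted p = 0.0062). Nr4a2 and Nr4a3, the relatives of Nr4a1, rose to 1.64, 3.22 and 2.28 CPM and 3.73, 1.23 and 2.6 CPM, both from means under 0.7 CPM (log2 fold changes 1.99, adjusted p = 0.00917, and 2.17, adjusted p = 0.00495), while Nr4a1 fell. Esrra, a regulator of mitochondrial genes, was the receptor that fell, from 59.1, 68.6, 56.7 and 80.6 to 41.04, 45.4 and 40.6 CPM (log2 fold change -0.63 ± 0.11 SE, adjusted p = 4.63e-04). In Imm_KO against mAM_KO, 5 rose, 1 fell and 9 were not called, against 17.7% of all genes higher and 20.2% lower; the one lower was the vitamin D receptor Vdr, at 44.1 against 62.8 CPM (log2 fold change -0.50 ± 0.16 SE, adjusted p = 0.0238). In mAM_KO against mAM_WT, Rarb and Esrrg were called higher, both low: Esrrg was 0.753, 1.15, 2.01 and 0.663 CPM in mAM_WT and 4.36, 1.93 and 8.505 CPM in mAM_KO, and the ranges overlap (log2 fold change 2.005, adjusted p = 0.0396). With all 11 libraries 1 of these 2 was called. Rarg did not pass in mAM_KO against mAM_WT as fitted (log2 fold change 0.33, adjusted p = 0.19, limma). After GC adjustment Rarg did pass there (0.53, adjusted p = 0.0207, limma). The other 6 receptors passed the test in no comparison. Rxrg was not analysed here.

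Nuclear receptors act through coactivators and corepressors, of which 24 of 25 listed genes were tested. In Imm_KO against mAM_WT, 6 rose and 9 fell, against 22.8% of all genes higher and 25.3% lower. The balance depended on the processing: after GC adjustment 9 rose and 6 fell, and by edgeR 7 rose and 6 fell. Ncoa4, which is also the cargo receptor for ferritin breakdown, was the most changed at 258 against 1251 CPM (log2 fold change -2.26 ± 0.11 SE, adjusted p = 3.83e-09). Nrip1, a corepressor of receptors in metabolic tissues, fell to 72.2 from 168 CPM (log2 fold change -1.22, adjusted p = 6.37e-09), and Cited2, a partner of CBP and p300, rose to 76.3 from 43.01 CPM (0.83, adjusted p = 1.10e-05). In Imm_KO against mAM_KO, 4 rose and 6 fell, against 17.7% and 20.2% of all genes, among them Ncoa1 at 86.99 against 167 CPM (log2 fold change -0.94, adjusted p = 2.20e-05). The list medians were 0.05, -0.06 and -0.05 on the log2 scale in the 3 comparisons, and those of all genes -0.00188, -0.00254 and -0.00534.

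Genes that handle retinoids, the source of RAR ligand, were tested for 11 of 26 listed. None was called in mAM_KO against mAM_WT by limma or edgeR, with 2 lower at an unadjusted p under 0.05 and 2 lower by DESeq2. In Imm_KO against mAM_WT 6 rose and 3 fell, beside 22.8% and 25.3% of all genes, and against mAM_KO 5 rose and 1 fell, beside 17.7% and 20.2%. Retsat, retinol saturase, was 25.04 against 12.9 CPM in Imm_KO and mAM_WT (log2 fold change 0.96 ± 0.17 SE, adjusted p = 3.81e-04). The retinol dehydrogenases Rdh11 (32.5 against 21.2 CPM) and Rdh13 (21.97 against 15.6 CPM) rose as well (log2 fold changes 0.62, adjusted p = 7.02e-04, and 0.49, adjusted p = 0.00287). Fabp5, which carries fatty acids and retinoic acid to PPARδ, was 292 against 192 CPM in Imm_KO and mAM_KO (log2 fold change 0.61, adjusted p = 2.27e-04). The list median was 0.37 against mAM_WT and 0.44 against mAM_KO.

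Target genes of the partner receptors were counted from lists of textbook targets. All gene lists here were chosen with earlier results of these data known, so their counts are a description and not an independent test. The counts of these lists, and of the clock and immediate early genes after them, stand beside 22.8% of all genes higher and 25.3% lower in Imm_KO against mAM_WT, 17.7% and 20.2% in Imm_KO against mAM_KO, and 2.25% and 2.59% in mAM_KO against mAM_WT. Most PPAR targets were lower in ImmAMs, where neither Pparg nor Ppard passed the test. Of 24 tested, 21 fell in Imm_KO against mAM_WT and 3 were not called (list median -1.25), and 22 fell against mAM_KO and 2 were not called (-1.04). Cidec, a lipid droplet protein and also one of the alveolar macrophage markers, was 8.95 against 388 CPM (log2 fold change -5.44 ± 0.12 SE, adjusted p = 4.95e-12). Angptl4, an inhibitor of lipoprotein lipase, was 6.73 against 146 CPM (log2 fold change -4.44, adjusted p = 8.06e-11), and Pdk4, which restrains pyruvate oxidation, 1.06 against 20.5 CPM (-4.29, adjusted p = 3.80e-09). In mAM_KO against mAM_WT, 4 fell and 20 were not called (median -0.19). The most changed was Fabp4, a fatty acid binding protein and alveolar macrophage marker, at 59.1 against 159 CPM (log2 fold change -1.45 ± 0.18 SE, adjusted p = 0.00183), with Cidec at -0.47, adjusted p = 0.042, and the peroxisomal thiolase Acaa1a at -0.45, adjusted p = 0.0124.

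LXR targets did not move one way. Of 17 tested, 7 rose and 6 fell in Imm_KO against mAM_WT (median 0.17), 7 rose and 5 fell against mAM_KO, and 3 rose and 3 fell in mAM_KO against mAM_WT. Apoe, an apolipoprotein also made in quantity by monocyte-derived and interstitial macrophages, was 1076 against 17.9 CPM (log2 fold change 5.93 ± 0.18 SE, adjusted p = 7.99e-11), and the small GTPase Arl4c was 53.6 against 9.58 CPM (2.52, adjusted p = 1.14e-07). Pltp, the phospholipid transfer protein, went the other way at 19.2 against 269 CPM (log2 fold change -3.81 ± 0.14 SE, adjusted p = 3.18e-10). In mAM_KO against mAM_WT, Scd1, the stearoyl-CoA desaturase, rose at 31.6 against 11.3 CPM (log2 fold change 1.48 ± 0.26 SE, adjusted p = 0.0108), Arl4c rose (0.69, adjusted p = 0.0444) and Pltp fell (-0.69, adjusted p = 0.0172).

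Of 16 glucocorticoid receptor targets tested, none was called in mAM_KO against mAM_WT by limma or edgeR, with 4 higher and 2 lower at an unadjusted p under 0.05 and 1 higher by DESeq2. In Imm_KO against mAM_WT 6 rose and 3 fell, and against mAM_KO 3 rose and 3 fell. The metallothioneins Mt2 (13.1 against 65.2 CPM) and Mt1 (75.7 against 180.3 CPM) fell, at log2 fold changes of -2.30, adjusted p = 5.57e-06, and -1.23, adjusted p = 8.71e-05. RAR targets were tested for 3 of 12 listed: Rarb as above, Tgm2, a transglutaminase, which fell at 277 against 749.6 CPM (log2 fold change -1.43 ± 0.11 SE, adjusted p = 2.76e-07), and Dhrs3, a retinal reductase, which fell at 347 against 388 CPM (-0.16, adjusted p = 0.045), though not after GC adjustment (adjusted p = 0.30). The clock list, which bears on Nr1d2, had 15 genes tested: 2 rose and 2 fell in Imm_KO against mAM_WT, 2 rose against mAM_KO, and none was called between the mature groups by limma, edgeR or DESeq2, with 1 higher and 1 lower at an unadjusted p under 0.05. The kinase Csnk1e rose (0.37, adjusted p = 3.12e-04), Csnk1d fell (-0.28, adjusted p = 0.00546) and the repressor Bhlhe40 rose (0.32, adjusted p = 0.00111). Immediate early genes, which like Nr4a1 answer quickly to stimulation and handling, had 24 tested. In mAM_KO against mAM_WT, 1 rose, Socs3, a feedback inhibitor of cytokine signals, at 16.1 against 7.77 CPM (log2 fold change 1.07 ± 0.22 SE, adjusted p = 0.0187), and 23 were not called. In Imm_KO against mAM_WT, 9 rose and 5 fell, with Ier3 at 13.1 against 1.096 CPM (3.72, adjusted p = 1.15e-05) and Egr1 at 6.45 against 2.49 CPM (1.43, adjusted p = 0.00429). Against mAM_KO, 6 rose and 5 fell, and Egr2, a zinc finger factor, was 44.4 against 101 CPM (-1.15, adjusted p = 4.29e-05).

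For each member, the 2 genes with the most similar log2 level over the 11 libraries were taken from the 8742 genes that averaged 10 CPM or more. Points share group, library and GC composition, so r also carries the differences between groups and is a description. Nr1h3 ran with Fabp1 (r = 0.997) and Cyb561a3 (r = 0.996). Fabp1 is a fatty acid binding protein and Cyb561a3 a lysosomal ferrireductase. Rara ran with Nod1 (r = 0.994) and Isoc2a (r = 0.994), of which Nod1 is a sensor of bacterial peptidoglycan. Rxrb ran with Gas2l1 (r = 0.988) and Rin3 (r = 0.983), Nr3c1 with Rap2c (r = 0.965) and Rap1a (r = 0.963) and Nr1h2 with Arf6 (r = 0.967) and Upf1 (r = 0.957). Rxra ran with Znrd1 (r = 0.953) and Neu1 (r = 0.940), and Neu1 is a lysosomal sialidase. Nr1d2 ran with Malt1 (r = 0.955) and Il1a (r = 0.948), a paracaspase of NF-κB signalling and the cytokine interleukin-1α. Ppard ran with Aup1 (r = 0.958) and Rpl28 (r = 0.948), Pparg with Serpinb6a (r = 0.931) and Hmox2 (r = 0.861) and Nr4a1 with Arhgap27 (r = 0.916) and Nsun2 (r = 0.879). No member was among the genes named for another member.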

How the data were processed

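Per the labels and the study's methods, total RNA of 40000 cells sorted from bronchoalveolar lavage (the series text speaks of lung digests) was made into directional poly(A) libraries and read as 60-base single ends. The authors trimmed reads with Cutadapt, aligned them to GRCm38 transcripts with RSEM 1.3.1, kept genes of at least 1 CPM in at least 3 samples and deposited TMM-normalised CPM; the strand setting is not given in the sources used here. Every deposited value was a whole read plus 0.5 divided by 1 library constant (100% whole within 0.01), so reads could be recovered. log2 CPM was fitted with limma 3.58.1 (R 4.3.3; 1 mean per group, variance trend, Benjamini-Hochberg over 12889 genes with 1 CPM in 3 libraries, threshold 0.05) on 10 libraries. Alternatives included edgeR 4.0.16 and DESeq2 1.42.0 on recovered reads and loess GC adjustment. Ratios were tested by two-sided exact permutation. The fit was tested on simulated reads that held no GC effect, so that test does not bear on the GC differences between libraries. The series text calls the libraries individual biological replicates and names no animals. Members and gene lists were chosen with earlier results of these data known. Named genes were the members, called other receptors, from each list and comparison at most the 3 called genes of largest fold with 5 CPM in the higher group, and 2 genes most similar to each member. Annotation was GENCODE M21; promoters were RefSeq (GRCm38.p6). Neither genome nor protein sequence was used. 1 result for a listed gene is not reported here.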

Additional observations from a re-analysis of the deposited data

Results flagged for a closer look

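Nr4a1 in mAM_KO replicate 2 stood apart from the other 3 mAM_KO libraries, at 5.29 CPM against 9.07 CPM in the nearest, a gap of 0.863 of the group's range; chance flags about 1 in 20 groups, and 20 groups were looked at. Without that library the log2 fold change of Nr4a1 from mAM_WT was -0.53 (adjusted p = 0.0629, limma). The mAM_KO replicate 4 library, which the main comparisons leave out, had Rxra at 418.8 CPM and Pparg at 231 CPM, above the highest mAM_WT libraries (379.5 and 219.7 CPM). Its level rose with GC content by 0.23 log2 for each 10 points relative to its group, and Rxra has 57.0% GC and Pparg 50.2%. With all 11 libraries and GC adjustment, an alternative chosen after seeing the data, the Rxra log2 difference of mAM_KO from mAM_WT was 0.17 (adjusted p = 0.0475, limma), against 0.00 as reported.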

How the results depend on the processing

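In mAM_KO against mAM_WT the count of members called moved from 1 to 0 with all 11 libraries, with the fit of the 2 groups alone, without the variance trend, with the replicate number as a block and after GC adjustment (the last chosen after seeing the data), and to 4 with DESeq2. The count of genes called moved from 624 to 337 with all 11 libraries, 199 with the 2 groups alone, 122 without the variance trend, 174 with the replicate block and 1352 with DESeq2 (edgeR called 566), and the share of them that were higher moved from 46.5% to 60.8% with all 11 libraries, 62.3% without the variance trend and 62.6% with the block. Deviations from group means of same-numbered libraries correlated at -0.13 to 0.06 over 8 pairs of the 10 libraries fitted. With mAM_KO replicate 4 included they ran from -0.13 to 0.25 over 10 pairs, 2 of them over 0.1, the highest for mAM_WT and mAM_KO replicate 4. Deviations from the means of so few libraries cannot show whether same-numbered libraries share an animal, so pairing stays unknown. With the replicate number as a block, on the 10 libraries fitted, Nr1d2 passed in Imm_KO against mAM_KO (log2 fold change 0.63, adjusted p = 0.0325, limma). Leaving out 1 library at a time gave 162 to 861 genes and 0 to 2 members called in mAM_KO against mAM_WT, 5027 to 6317 genes and 5 to 8 members in Imm_KO against mAM_WT, and 3971 to 5278 genes and 2 to 6 members in Imm_KO against mAM_KO. 

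Signs turned in the following differences, none called as reported; 1 of them, Rxra in mAM_KO against mAM_WT, passed with all 11 libraries and GC adjustment (0.17, adjusted p = 0.0475). Ppard in mAM_KO against mAM_WT became 0.021 with all 11 libraries, 0.018 with the block, 0.040 after GC adjustment and 0.059 with both 11 libraries and GC adjustment. Nr3c1 there became -0.014 with all 11 libraries, -0.090 after GC adjustment and -0.087 with both. Nr4a1 in Imm_KO against mAM_KO became -0.065 with all 11 libraries, -0.0039 with a pseudocount of 1 CPM, -0.00029 with the block, -0.028 with edgeR, -0.025 with DESeq2, -0.057 after GC adjustment and -0.064 with both. On leaving out 1 library, Rxra ran from -0.048 to 0.049, Ppard from -0.091 to 0.050 and Nr3c1 from -0.043 to 0.090 in mAM_KO against mAM_WT, Nr4a1 from -0.27 to 0.16 in Imm_KO against mAM_KO, and the Pparg to Ppard ratio from -0.19 to 0.028 in Imm_KO against mAM_WT. Of the other values of single members, 353 outside the leave-outs kept direction and side of the threshold, 16 passed newly and 7 no longer passed. Causes of these changes were not tested.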
